A study of Solanum lycopersicum with 15 samples.

Results

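A set of 4 tomato loci that handle iron inside the plant was followed across root nutrient regimes: the ferritins Solyc06g050980 and Solyc05g051380, the nicotianamine synthase Solyc01g100490 (CHLN, from the chloronerva mutant) and the metal transporter Solyc11g018530 (NRAMP1). They were taken by identifier, the text before the first dot of each row name, from a table of 34075 genes. All 4 were present, none was listed at 0 in any of the 15 libraries, and all 4 passed the filter on low values that left 18889 genes for testing. Polyadenylated RNA came from roots of tomato (Solanum lycopersicum) given iron and nitrate, iron and ammonium, iron and urea, or iron without nitrogen, and from control roots that had neither iron nor nitrogen, with 3 libraries per regime. All regimes with nitrogen also had iron, so nitrogen without iron was not part of the set. No genotype, plant age or time after resupply was given in the sources used here, and nothing said whether replicates were separate plants, so the p-values measure only the spread between these libraries, which may be technical. Levels are the authors' FPKM, which are fragment numbers corrected for transcript length and for the mapped fragments of the library. In bulk root RNA, fewer cells of a type and less RNA per cell cannot be told apart.

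Iron that has entered a root cell is bound, moved or stored. Ferritins are plastid protein shells that hold iron in a form that does not react, and plant ferritin genes are known to be expressed more strongly when iron is plentiful. Nicotianamine synthase joins S-adenosylmethionine molecules into nicotianamine, a small chelator that keeps iron soluble in cells and in the phloem, and the tomato mutant chloronerva lacks it. NRAMP proteins carry divalent metal ions across membranes, and tomato NRAMP1 is known as a root transporter of the iron-deficiency response. The deposited table pairs no identifier with a name. The RefSeq gene table of assembly SLM_r2.1 holds the symbols CHLN on chromosome 1 and NRAMP1 on chromosome 11, the chromosomes named in these identifiers, but not the identifiers themselves. For the same reason root marker genes were not checked.

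The libraries summed to between 546848 and 589451 FPKM, and 17357 to 18082 genes per library reached 1 FPKM. Relative to their mean depth the libraries lay between 0.873 and 1.27, as judged from ratios of low values; how many reads that is was not given. On the first principal component, which held 25.5% of the variance, replicate 3 of iron alone lay at -21.3. Replicates 1 and 2 of iron alone lay at -7.31 and -3.49, farther from the control roots (-36.1 to -29.8). The libraries of iron and nitrate lay at -21.8 to -8.35. The lowest of them, replicate 3, had 410 FPKM of nicotianamine synthase and 185 FPKM of NRAMP1. Why iron-alone replicate 3 stood apart from the other libraries of its regime was not tested. Iron-alone replicate 3 is the lowest library of its regime for nicotianamine synthase and NRAMP1, and values without it are given below where it matters.

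**Figure D1:**
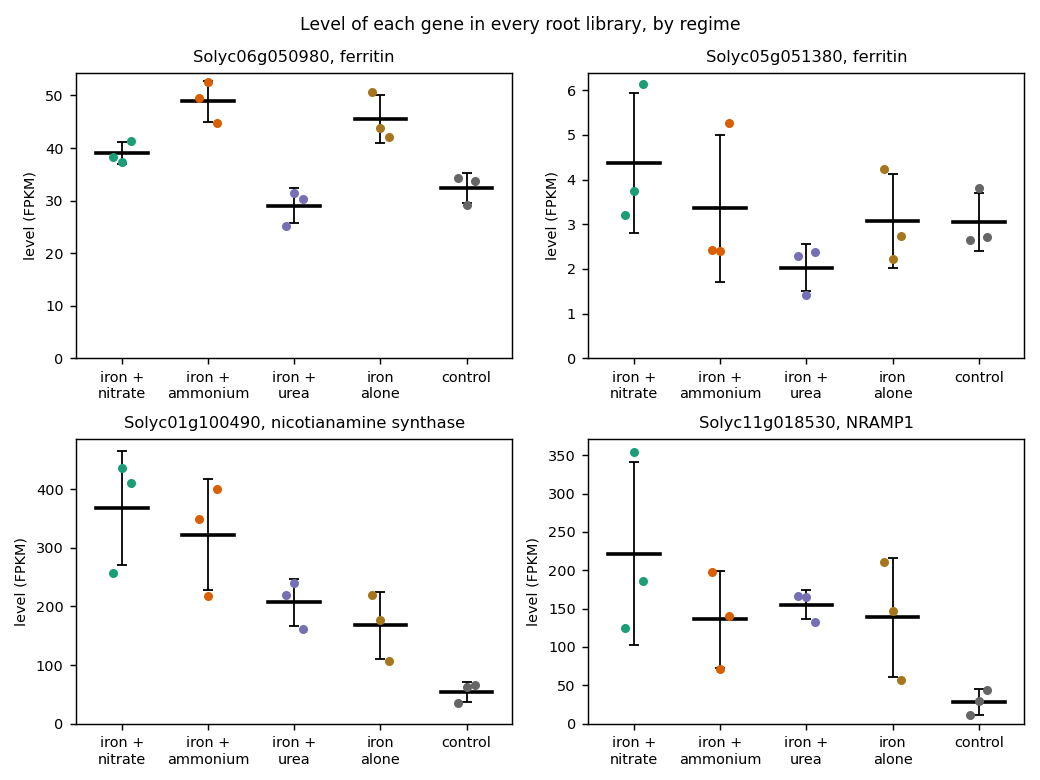
Level in FPKM (vertical axes, from 0) of each of the 4 genes in every root library, by regime; points are libraries in order of replicate number, long bars the regime mean and error bars the SD (n = 3). For nicotianamine synthase and NRAMP1 every library with iron lies above all 3 control libraries, whereas the ferritin Solyc06g050980 is at 25.2 to 31.5 FPKM with iron and urea and at 29.2 to 34.3 FPKM in control roots.

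The storage genes come first. Solyc06g050980, the more abundant ferritin transcript, stood at 38.2, 37.4 and 41.4 FPKM with iron and nitrate, at 49.4, 52.6 and 44.7 FPKM with iron and ammonium, at 25.2, 31.5 and 30.3 FPKM with iron and urea, at 50.7, 43.8 and 42.1 FPKM with iron alone and at 34.3, 29.2 and 33.8 FPKM in control roots. Ammonium and iron alone gave the high values and overlapped each other, nitrate lay between, and urea and control roots gave the low values and overlapped. Its level differed among the 5 regimes by limma's moderated F-test (adjusted p = 0.000365, where 37.8% of all tested genes passed). Adjusted p-values come from limma, are two-sided and were adjusted by Benjamini-Hochberg over the 18889 tested genes within a comparison. A gene is said to have risen or fallen at an adjusted p under 0.05.

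With iron alone Solyc06g050980 rose over control roots, to 45.5 ± 4.56 FPKM with iron alone against 32.4 ± 2.78 FPKM in control roots (SD, n = 3), a ratio of means of 1.40. The difference on the log2(FPKM + 1) scale was 0.48 with a standard error of 0.10 (95% interval 0.26 to 0.70, limma adjusted p = 0.0164), and the 2 ranges did not overlap. It was one of 3 of the 4 genes that rose in that comparison, in which 6.40% of all tested genes changed in either direction. The call was lost without iron-alone replicate 1 or control replicate 2 (limma adjusted p = 0.0738 and 0.0718), and likewise in a fit of these regimes alone (0.0556).

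This ferritin was lower with urea than in the other iron regimes. Solyc06g050980 averaged 29.0 ± 3.35 FPKM with iron and urea, a log2 difference of -0.63 from iron alone (standard error 0.10, 95% interval -0.85 to -0.41, limma adjusted p = 0.000786). It was the only one of the 4 genes that fell in that comparison, in which 19.0% of all tested genes changed. The median change of all tested genes there was -0.10 on the same scale, and with size factors, which bring that median to about 0, the call held, as it did in each of the 15 alternatives run (limma adjusted p from 0.000618 to 0.0155).

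Direct comparisons of the nitrogen forms put ammonium and nitrate above urea for Solyc06g050980. Its level was higher with ammonium than with urea by 0.74 on the log2 scale (standard error 0.10, limma adjusted p = 0.000575), in a comparison in which 11.1% of all tested genes differed. With nitrate it was higher than with urea by 0.42 (standard error 0.10, limma adjusted p = 0.0107; 19.6% of tested genes differed), and that call was lost without urea replicate 1 (0.0548). Nitrate and ammonium, at 39.0 ± 2.11 and 48.9 ± 3.96 FPKM (SD, n = 3), had ranges that did not overlap, but the log2 difference of -0.32 missed the threshold (95% interval -0.54 to -0.10, limma adjusted p = 0.0848).

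Set against control roots, Solyc06g050980 rose with iron and ammonium by 0.58 on the log2 scale (standard error 0.10, limma adjusted p = 0.00138). With iron and nitrate the difference from control was 0.26 (95% interval 0.04 to 0.48, limma adjusted p = 0.106), and with iron and urea it was -0.16 (95% interval -0.38 to 0.06, limma adjusted p = 0.279). Over the 4 iron regimes together the difference from control was 0.29 (limma adjusted p = 0.0214), a call that was lost without control replicate 2 or 3 (0.143 and 0.0541). Relative to iron alone, ammonium gave 0.10 (95% interval -0.12 to 0.32, limma adjusted p = 0.563) and nitrate -0.22 (-0.44 to 0.01, adjusted p = 0.203). The 3 nitrogen forms together, which thus include differences of either sign, stood at -0.25 (95% interval -0.43 to -0.07, limma adjusted p = 0.0574), with an adjusted p from 0.0476 without urea replicate 2 to 0.268 without iron-alone replicate 1.

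The other ferritin, Solyc05g051380, was a low transcript. It was at 3.21, 3.74 and 6.14 FPKM with iron and nitrate, at 2.42, 2.40 and 5.26 FPKM with iron and ammonium, at 2.30, 1.42 and 2.38 FPKM with iron and urea, at 4.24, 2.23 and 2.74 FPKM with iron alone and at 2.65, 3.80 and 2.72 FPKM in control roots. The urea libraries lay below all nitrate, ammonium and control libraries but overlapped with iron alone, and a single library stood well above the others with nitrate, ammonium and iron alone. Each library placed it above 12.6% to 39.3% of the tested genes, whereas Solyc06g050980 lay above 77.3% to 88.6% of them.

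For Solyc05g051380 no comparison passed the threshold. The F-test over the 5 regimes gave an adjusted p of 0.212, and iron alone differed from control by -0.01 on the log2 scale (95% interval -0.61 to 0.58, limma adjusted p = 0.988), at 3.07 ± 1.05 FPKM with iron alone and 3.06 ± 0.647 FPKM in control roots (SD, n = 3). The widest separation was between nitrate, at 4.36 ± 1.56 FPKM, and urea, at 2.03 ± 0.531 FPKM (SD, n = 3), with a log2 difference of 0.80 (95% interval 0.21 to 1.39, limma adjusted p = 0.0571). Those ranges did not overlap. Over single libraries left out, the adjusted p ran from 0.0493 without nitrate replicate 1 to 0.220 without nitrate replicate 3, the highest library, where the log2 difference was 0.58. The interval of Solyc05g051380 for iron alone against control includes the 0.48 found for Solyc06g050980.

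**Figure D2:**
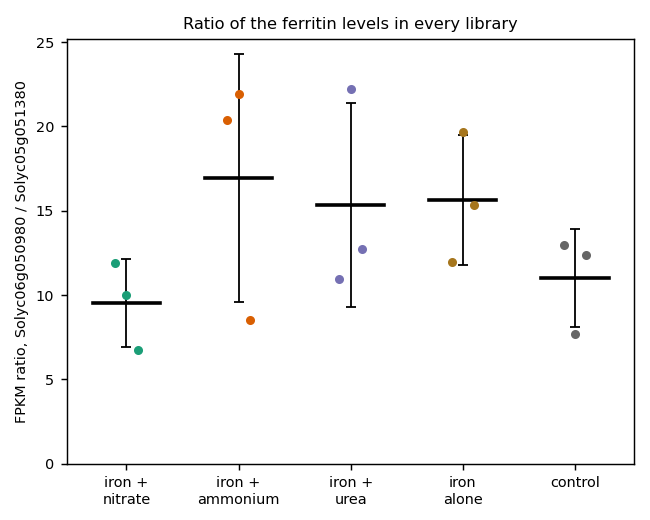
Ratio of the FPKM of Solyc06g050980 to that of Solyc05g051380 (vertical axis, from 0) in each library, by regime; points are libraries, long bars means and error bars SD (n = 3). The ratio lies between 6.73 and 22.2 in the 15 libraries, and the regimes overlap except that nitrate, at most 11.9, stays just under iron alone, at least 12.0.

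The balance between the ferritins was then taken within each library, where scaling between libraries has no effect. Solyc06g050980 exceeded Solyc05g051380 by 11.9, 9.99 and 6.73 times with iron and nitrate, by 20.4, 21.9 and 8.50 times with iron and ammonium, by 11.0, 22.2 and 12.8 times with iron and urea, by 12.0, 19.7 and 15.4 times with iron alone and by 12.9, 7.68 and 12.4 times in control roots. It supplied 87.1% to 95.7% of the summed ferritin FPKM. The log2 ratio averaged 3.75 ± 0.563 over the 12 libraries with iron and 3.42 ± 0.418 over the 3 control libraries (SD), a difference of 0.32 (exact two-sided permutation test, p = 0.387). Between the 9 libraries with nitrogen and the 3 with iron alone the difference was -0.26 (exact two-sided permutation test, p = 0.527). Neither of these pooled differences was detectable at this spread, which includes any differences between the pooled regimes. Single regimes were not tested against each other, and the nitrate ratios all lay under those of iron alone (mean log2 ratio 3.22 and 3.94).

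Solyc01g100490, the nicotianamine synthase that makes the chelator, was among the most abundant transcripts. It reached 258, 437 and 410 FPKM with iron and nitrate, 349, 218 and 401 FPKM with iron and ammonium, 219, 240 and 162 FPKM with iron and urea and 220, 176 and 107 FPKM with iron alone, against 35.1, 62.4 and 66.4 FPKM in control roots. Every library with iron was above every control library, and in the order of the means (nitrate, ammonium, urea, iron alone, control) each iron regime overlapped with the next. In the iron and nitrate libraries it lay above 98.2% to 99.2% of the tested genes, and in control roots above 82.8% to 91.0%.

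Nicotianamine synthase Solyc01g100490 rose with iron alone, to 168 ± 57.1 FPKM with iron alone against 54.6 ± 17.1 FPKM in control roots (SD, n = 3), 3.07 times as much. Its log2 difference was 1.59 (standard error 0.32, 95% interval 0.90 to 2.28, limma adjusted p = 0.0117). Only 59 of the tested genes had a larger positive change in that comparison. The call was lost without iron-alone replicate 1 (limma adjusted p = 0.0567) and in a fit of these regimes alone (0.0507).

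Each nitrogen form also left Solyc01g100490 above control roots. With iron and nitrate it averaged 368 ± 96.7 FPKM (SD, n = 3), 6.74 times the control mean, with a log2 difference of 2.75 (standard error 0.32, limma adjusted p = 9.28e-05). For iron and ammonium the mean was 323 ± 94.1 FPKM and the log2 difference 2.55 (limma adjusted p = 0.000128), and for iron and urea the mean was 207 ± 40.2 FPKM and the log2 difference 1.94 (limma adjusted p = 0.000646). Of the 4 genes, 2, 3 and 2 rose over control roots with nitrate, ammonium and urea, in comparisons in which 15.6%, 20.8% and 27.3% of all tested genes changed in either direction. These comparisons share the control libraries with each other and with iron alone, so they are not independent. The calls of nicotianamine synthase for the nitrogen forms against control held in all 15 alternatives of each comparison, with a limma adjusted p of at most 0.00375.

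Against iron alone, nitrate was the form with which nicotianamine synthase Solyc01g100490 passed the threshold. The log2 difference was 1.16 (standard error 0.32, 95% interval 0.46 to 1.85, limma adjusted p = 0.0329), a ratio of means of 2.20, and the nitrate libraries lay above those of iron alone without overlap. It was the only one of the 4 genes called there, where 11.7% of all tested genes changed. The call was lost without nitrate replicate 2 or 3 (limma adjusted p = 0.108 and 0.117) or iron-alone replicate 2 or 3 (0.0619 and 0.120), in a fit of these regimes alone (0.0750), with no filter on low values (0.0528) and with the replicate number as a block (0.05001).

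For ammonium the difference of Solyc01g100490 from iron alone was 0.96 (95% interval 0.27 to 1.65, limma adjusted p = 0.0647), in a comparison in which 13.9% of tested genes changed and none of the 4 was called. It passed the threshold without ammonium replicate 2 or iron-alone replicate 1 (limma adjusted p = 0.0328 and 0.0463). Without iron-alone replicate 3 the log2 difference fell to 0.66. Over single libraries left out, the limma adjusted p reached 0.223. Urea gave 0.35 (95% interval -0.35 to 1.04, limma adjusted p = 0.501), and 0.05 without iron-alone replicate 3. The forms did not differ from each other by the test: nitrate minus ammonium was 0.20 (limma adjusted p = 0.806; 7.06% of tested genes differed), nitrate minus urea 0.81 (0.0976) and ammonium minus urea 0.61 (0.246). The last 2 intervals ran from 0.12 to 1.50 and from -0.08 to 1.30, so the data do not show that the forms acted alike. The 3 forms together stood 0.82 above iron alone (limma adjusted p = 0.0472; 17.0% of tested genes changed). This call was lost without any 1 of 8 of the 12 libraries, namely nitrate replicate 2 or 3 (0.0724 and 0.0737), ammonium replicate 1 or 3 (0.0731 and 0.0733), urea replicate 1 or 2 (0.0697 and 0.0745) and iron-alone replicate 2 or 3 (0.0900 and 0.256). It was also lost with no filter (0.0712), quantile normalization (0.0604), no variance trend (0.0600) and the replicate block (0.0678), and without iron-alone replicate 3 the log2 difference was 0.53.

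Solyc11g018530, the metal transporter NRAMP1, had the widest range of the set as a ratio, its highest library being 32.6 times its lowest, against 12.5 times for nicotianamine synthase, which spanned more in FPKM. It stood at 125, 355 and 185 FPKM with iron and nitrate, at 197, 70.8 and 140 FPKM with iron and ammonium, at 167, 166 and 133 FPKM with iron and urea and at 211, 147 and 57.4 FPKM with iron alone, against 10.9, 29.5 and 44.1 FPKM in control roots. No library with iron overlapped with a control library, although iron-alone replicate 3 came near to control replicate 3. The coefficient of variation within a regime was 53.7% for nitrate, 46.5% for ammonium, 55.8% for iron alone and 59.1% for control roots, but 12.4% for urea.

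NRAMP1 (Solyc11g018530) rose with iron alone to 138 ± 77.3 FPKM, against 28.1 ± 16.6 FPKM in control roots (SD, n = 3), a ratio of means of 4.92. Its log2 difference was 2.27 (standard error 0.56, 95% interval 1.07 to 3.47, limma adjusted p = 0.0301), and 19 of the tested genes had a larger positive change. The call was lost on leaving out iron-alone replicate 1 or 2 (limma adjusted p = 0.122 and 0.0974) or control replicate 1 or 2 (0.103 and 0.0674), and in a fit of these regimes alone (0.0969). Without iron-alone replicate 3 the log2 difference was 2.80 (0.0109). The direction is opposite to the one that the known induction of tomato NRAMP1 under iron deficiency would give. Ferritin genes are known to be expressed more strongly when iron is plentiful. In the same comparison nicotianamine synthase Solyc01g100490 differed by 1.59, Solyc06g050980 by 0.48 and Solyc05g051380 by -0.01. With nitrogen added, Solyc06g050980 differed from control by 0.26 for nitrate, 0.58 for ammonium and -0.16 for urea. What lies behind these directions was not tested. The regime labels were not checked by another measurement and were taken as they stand.

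With nitrogen added, NRAMP1 (Solyc11g018530) again stood above control roots. Iron and nitrate gave 222 ± 119 FPKM (SD, n = 3) and a log2 difference of 3.00 (standard error 0.56, limma adjusted p = 0.00246). Iron and ammonium gave 136 ± 63.4 FPKM and 2.32 (limma adjusted p = 0.00967), and iron and urea 155 ± 19.2 FPKM and 2.61 (limma adjusted p = 0.0036). Those calls held in all 15 alternatives of each comparison, with a limma adjusted p of at most 0.0477. Over the 4 iron regimes together the log2 difference from control was 2.55 (standard error 0.44, limma adjusted p = 0.00123), and 14 of the tested genes had a larger positive one. For nicotianamine synthase Solyc01g100490 it was 2.21 (standard error 0.25, limma adjusted p = 8.03e-05), in a comparison in which 21.2% of tested genes changed.

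No nitrogen form moved NRAMP1 (Solyc11g018530) past the threshold relative to iron alone. The log2 difference was 0.73 for nitrate (95% interval -0.47 to 1.93, limma adjusted p = 0.454), 0.05 for ammonium (-1.16 to 1.25, adjusted p = 0.972) and 0.34 for urea (-0.86 to 1.55, adjusted p = 0.722). All 3 intervals reach beyond 1 on the log2 scale, so the data do not show that the forms left NRAMP1 alike. Without iron-alone replicate 3 the same differences were 0.20 for nitrate, -0.49 for ammonium and -0.19 for urea (adjusted p = 0.879, 0.639 and 0.869), so the sign for ammonium and urea turned without that library. Other single libraries also moved them: the difference for nitrate was 0.32 without nitrate replicate 2, and that for ammonium was -0.28 and -0.04 without ammonium replicate 1 and 3. Among the forms the adjusted p-values lay between 0.564 and 0.788.

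**Figure D3:**
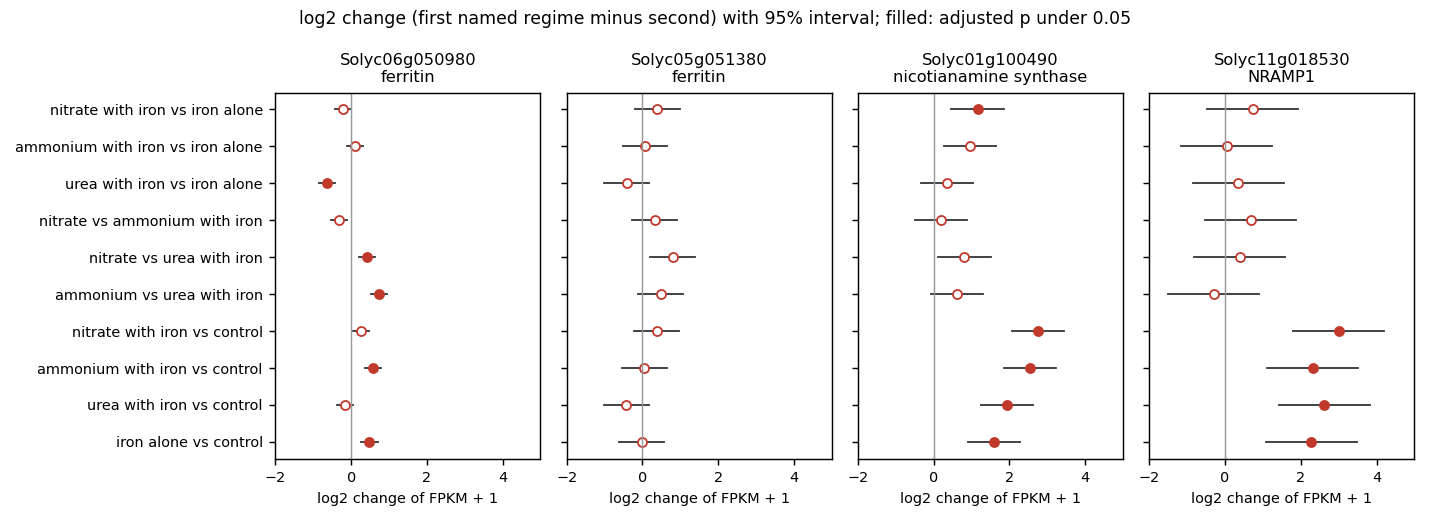
Difference of log2(FPKM + 1) between regimes, the first named minus the second (horizontal axes), for the 10 pairwise comparisons of each gene; points are limma estimates, bars 95% intervals, and filled points passed an adjusted p of 0.05. Nicotianamine synthase and NRAMP1 have filled points in all 4 comparisons with control, the ferritin Solyc06g050980 in 2 of these and in all 3 that involve urea and another iron regime, and the ferritin Solyc05g051380 in none.

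Nicotianamine synthase and NRAMP1 also varied together from library to library. Within a regime the lowest library was the same for both genes in all 5 regimes: nitrate replicate 1, ammonium replicate 2, urea replicate 3, iron-alone replicate 3 and control replicate 1. Deviations of log2(FPKM + 1) from the regime mean correlated at a Pearson r of 0.92 between Solyc01g100490 and Solyc11g018530 over 15 libraries (exact permutation within regimes, p = 0.00103, adjusted p = 0.00618 over 6 pairs of genes). Spearman's rho was 0.83 (exact permutation p = 0.00412, adjusted p = 0.0247). The measure was chosen after these values had been seen, so the p-values describe the pattern and do not test it. Without iron-alone replicate 3 and control replicate 1, the libraries farthest from the median, r was 0.82.

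Set beside all tested genes, 17 had a higher within-regime r with NRAMP1 (Solyc11g018530) than nicotianamine synthase did, and the median r of all tested genes with it was -0.03. The other 5 pairs among the 4 genes had r between -0.16 and 0.43 and adjusted p-values of at least 0.579 by the same exact permutation test. The ferritin Solyc06g050980 had r of -0.05 with nicotianamine synthase and -0.01 with NRAMP1. These comparisons too rest on a measure chosen after the values had been seen.

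**Figure D4:**
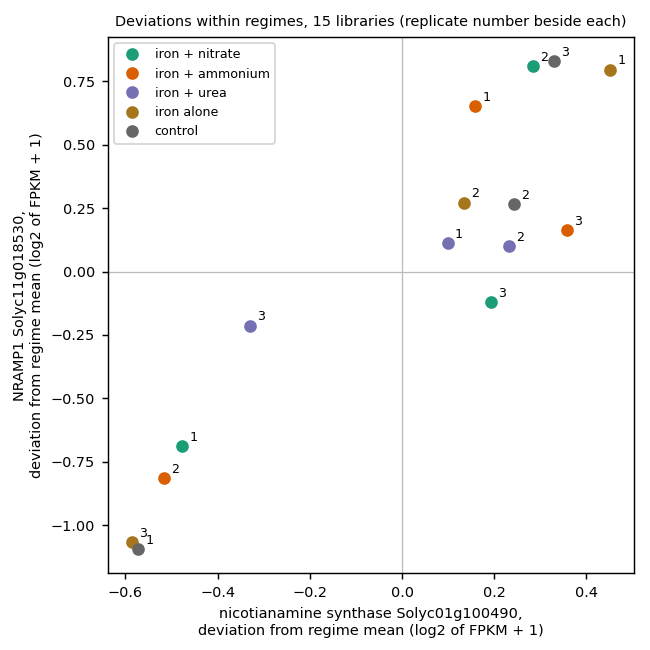
Deviation of each library from its regime mean in log2(FPKM + 1), for nicotianamine synthase Solyc01g100490 (horizontal axis) and NRAMP1 Solyc11g018530 (vertical axis); each point is 1 of the 15 libraries, coloured by regime and marked with its replicate number. The lowest library of each regime is low for both genes, at -0.59 and -1.07 in iron-alone replicate 3 and at -0.57 and -1.09 in control replicate 1.

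Genes with the most similar pattern were found by Pearson's r of log2(FPKM + 1) over the 15 libraries, as a description in which the difference between regimes and the spread within them both count. NRAMP1 (Solyc11g018530) was most like Solyc11g045520.ITAG4.0 (r = 0.99, Spearman's rho 0.96), which averaged 150 FPKM with iron and nitrate, 105 with iron and ammonium, 82.6 with iron and urea, 82.0 with iron alone and 11.9 in control roots. Next came Solyc12g088970.1.ITAG4.0 (r = 0.98) and Solyc01g094910.ITAG4.0 (r = 0.98). Nicotianamine synthase ranked 20th by this measure for NRAMP1, at r = 0.92.

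For nicotianamine synthase Solyc01g100490 the nearest patterns were those of Solyc12g017350.ITAG4.0 (r = 0.95), Solyc02g092550.ITAG4.0 (r = 0.94) and Solyc01g109990.ITAG4.0 (r = 0.94), and NRAMP1 ranked 8th. Solyc12g017350.ITAG4.0 averaged 142, 117, 115 and 70.3 FPKM with nitrate, ammonium, urea and iron alone, and 20.0 FPKM in control roots. The ferritin Solyc06g050980 was most like Solyc12g006380.2.ITAG4.0 (r = 0.95), at 25.1, 36.6, 16.1 and 30.7 FPKM in the same iron regimes and 21.3 FPKM in control roots, followed by Solyc02g038803.1.ITAG4.0 (r = 0.91) and Solyc03g117480.ITAG4.0 (r = 0.90). For Solyc05g051380, which passed the threshold in no comparison, the 3 closest reached r = 0.86 to 0.85 (Solyc12g096470.ITAG4.0, Solyc04g076080.ITAG4.0 and Solyc06g007680.1.ITAG4.0). The ferritins ranked far down each other's lists, at r = 0.29.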

How the data were processed

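About 60 mg of powdered root tissue went into each RNA extraction, per the labels' protocols, and mRNA libraries were prepared from 2 µg of that RNA. The authors deposited FPKM, 1 value per gene and library, and no read counts. HISAT2 was the aligner, per the submitters' processing notes. Its version, the genome build and the FPKM program are not given in the sources used here, though the row identifiers carry the tag ITAG4.0. Table columns were matched to samples by library name, and 0 pairs of libraries held identical values. FPKM corrects for depth and length, not for RNA composition.

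A gene was tested if it reached 1 FPKM in 3 or more libraries. limma 3.58.1 (R 4.3.3) was fitted to log2(FPKM + 1) with a mean for each regime, all 15 libraries sharing the spread, and eBayes with a variance trend. This scale understates changes of low genes. The fit was first run on simulated normal values with added shifts larger than any difference of Solyc06g050980, so smaller shifts were not covered. Intervals are unadjusted 95% limma intervals. Relative depth came from the most frequent ratio of values under 0.5 FPKM in each of 105 library pairs, all of which matched 1 depth per library within 0.05 (log2). Ratios and correlations had exact permutation tests (scipy 1.17.1).

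The named genes are the 4 loci and, for each, the 3 tested genes with the highest r. Members, named genes and comparisons were chosen with earlier results of these data known. Other iron genes were to be named only where an annotation at hand held their identifiers, which it did not. The alternatives changed the pseudocount (0.1), the filter (none, or a mean of 5 FPKM), the scaling (size factors, quantiles, equal totals), the variance trend, the libraries in the fit (only those compared, or all but 1), or added a replicate block.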

Additional observations from a re-analysis of the deposited data

How the results depend on the processing

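For the 4 genes in 12 comparisons, the F-test and the ferritin ratio, 54 results were recomputed under 884 alternative settings or left-out libraries, of which 814 kept the direction and the side of the threshold, and 33 results did so in all of theirs. Solyc05g051380 could not be fitted at a mean of at least 5 FPKM, which it does not reach. The cause of each shift was not tested. All values are limma adjusted p-values.

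For nicotianamine synthase Solyc01g100490 with nitrate against iron alone, the call was lost with no filter (0.0528), with only the groups compared (0.0750) and with the replicate number as a block (0.05001). With the 3 nitrogen forms together it was lost with no filter (0.0712), quantile normalization (0.0604), no variance trend (0.0600) and the replicate block (0.0678). Fitting only the groups compared ended the iron-alone calls against control of Solyc06g050980 (0.0556), Solyc01g100490 (0.0507) and Solyc11g018530 (0.0969). At a mean of at least 5 FPKM the pooled difference of the nitrogen forms from iron alone passed the threshold for Solyc06g050980 (0.0473). That log2 difference of -0.25 averages -0.63 for urea, -0.22 for nitrate and 0.10 for ammonium. For Solyc05g051380 the difference of all iron regimes from control, near 0, changed sign with size factors (0.952) and quantile normalization (0.814), and that of iron alone with quantile normalization (adjusted p = 1.0).

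Leaving out 1 library at a time gave these ranges. For iron alone against control they were 0.0169 to 0.0738 for Solyc06g050980, 0.00573 to 0.0567 for Solyc01g100490, 0.0109 to 0.122 for Solyc11g018530 and 0.772 to 0.971, with either sign, for Solyc05g051380. For all iron regimes against control they were 0.00949 to 0.143 for Solyc06g050980 and 0.808 to 0.985, with either sign, for Solyc05g051380. For Solyc01g100490 against iron alone they were 0.0210 to 0.120 with nitrate, 0.0328 to 0.223 with ammonium and 0.0269 to 0.256 with all forms, and between nitrate and ammonium 0.566 to 0.964 with either sign. For Solyc06g050980 they were 0.0110 to 0.0548 for nitrate against urea and 0.0476 to 0.268 for all forms against iron alone. For Solyc05g051380 they were 0.0493 to 0.220 for nitrate against urea, and, with either sign, 0.624 to 0.980 for ammonium against iron alone, 0.587 to 0.9985 for ammonium against control and 0.640 to 0.989 for all forms against iron alone. For Solyc11g018530 with nitrate against iron alone they were 0.286 to 0.879, with log2 differences from 0.20 (without iron-alone replicate 3) to 1.13. With either sign for the same gene they were 0.639 to 0.984, 0.449 to 0.869 and 0.376 to 0.871 for ammonium, urea and all forms against iron alone, 0.474 to 0.989 for nitrate against urea and 0.610 to 0.934 for ammonium against urea.

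Same-numbered libraries deviated from their regime means with correlations of -0.11 to 0.14 across genes, over 0.1 in 3 of 30 pairs, so the numbers were not taken as pairs, and a call lost under the block is not read as a weaker effect. Depth is known only in relative terms, so no counting error can be set on the low ferritin.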
